A study of Caenorhabditis elegans with 2 samples.

Results

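The long intergenic noncoding RNA (lincRNA) genes of Caenorhabditis elegans were examined as places where the corepressor GEI-8 sits on chromatin. All nuclear genes of the biotype lincRNA in the Ensembl annotation of assembly WBcel235 were taken, which gave 194 of the 46890 annotated nuclear genes. They were set beside the 19973 protein-coding genes, measured in the same way. Membership was set by annotation alone and not by any peak, but the class was chosen with earlier results of these data known.

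The data are chromatin immunoprecipitation with sequencing (ChIP-seq) of tagged GEI-8 in whole L4 larvae, the last larval stage, in 1 group of 2 biological replicates. The worms were strain OP589, which carries the mutation unc-119(tm4063) and the transgene wgIs589, a single integrated line; the transgene holds gei-8 fused to TY1, EGFP and 3xFLAG tags and, for rescue, unc-119(+). Males and hermaphrodites were pooled and collected at 48 hours, after starvation of first-stage larvae hatched from bleached animals, and an anti-GFP antibody was used for the precipitation (the antibody field of the labels names gei-8). No untagged, mutant or other-stage group was analysed here, and whole animals were used, so tissues cannot be told apart.

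LincRNAs are transcripts with little coding capacity whose genes lie apart from protein-coding genes; in worms some are known to act in development and in stress, and for most no function is known. GEI-8 is related to NCoR and SMRT, vertebrate corepressors that do not read DNA themselves but are brought to it by nuclear receptors and other factors and recruit histone deacetylases. A peak therefore marks DNA near the protein, and not which of the neighbouring genes, if any, responds to it.

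A peak list gives for each peak an interval, a summit (the position of highest signal) and a signal value from the authors' peak caller. Signal is comparable between lists only through its rank, with rank 1 the strongest. The deposited reproducible list held 1053 peaks, which were the 1053 strongest of the pooled list, with a median signal of 162 and a range of 125 to 623. Each replicate and the pool also had a relaxed list of 30000 peaks that reaches into background. A gene was called bound when a reproducible summit fell from 1000 bp before to 200 bp past its annotated 5′ end. As a check of the transgene loci, the best peak in the gei-8 window had rank 1199 in the pool, 1297 in replicate 1 and 1267 in replicate 2. That in the unc-119 window had rank 15740, 16959 and 29804 in the same order.

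The sequences under 5 of the 8 bound lincRNA summits, shown because they are the DNA at which the results rest, are given below with that of the strongest summit inside a lincRNA gene (linc-128). Each is plus-strand DNA from 100 bp before to 100 bp after the pooled summit, read 5′ to 3′ from the RefSeq genome of WBcel235 (ce11). Capitals mark matches on either strand to AGGTCA (the half-site of many nuclear receptors), to the repeat GAGAGA, to the TATA box TATAAA or to GGTTCNA (the core of the B box of RNA polymerase III genes). The lines for linc-103 and linc-54 are the summits without a divergent coding partner, linc-78 and linc-69 lie between divergent genes, and linc-44 is the strongest and lies beside a tRNA gene.
linc-44 (chrII:5782022-5782222): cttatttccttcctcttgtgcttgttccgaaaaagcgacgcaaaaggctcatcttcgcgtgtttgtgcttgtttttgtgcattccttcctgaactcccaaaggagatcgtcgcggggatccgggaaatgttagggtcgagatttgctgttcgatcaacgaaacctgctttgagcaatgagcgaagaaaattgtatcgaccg
linc-103 (chrX:6255698-6255898): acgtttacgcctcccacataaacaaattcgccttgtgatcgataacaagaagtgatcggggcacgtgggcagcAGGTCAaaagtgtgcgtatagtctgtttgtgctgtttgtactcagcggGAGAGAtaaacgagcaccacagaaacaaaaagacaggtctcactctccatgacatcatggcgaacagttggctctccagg
linc-54 (chrX:14506043-14506243): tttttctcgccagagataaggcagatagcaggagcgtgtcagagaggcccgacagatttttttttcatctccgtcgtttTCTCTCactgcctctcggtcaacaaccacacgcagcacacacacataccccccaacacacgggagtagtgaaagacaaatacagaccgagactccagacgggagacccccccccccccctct
linc-78 (chrX:2242879-2243079): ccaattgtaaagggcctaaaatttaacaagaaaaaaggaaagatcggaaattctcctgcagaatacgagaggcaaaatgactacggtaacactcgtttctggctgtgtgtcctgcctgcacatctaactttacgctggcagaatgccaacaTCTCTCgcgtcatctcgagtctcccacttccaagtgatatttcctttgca
linc-69 (chrV:8768532-8768732): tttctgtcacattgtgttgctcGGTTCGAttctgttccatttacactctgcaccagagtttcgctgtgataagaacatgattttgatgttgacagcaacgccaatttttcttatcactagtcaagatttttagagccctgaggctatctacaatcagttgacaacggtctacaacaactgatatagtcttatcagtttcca
linc-128 (chrV:1151427-1151627): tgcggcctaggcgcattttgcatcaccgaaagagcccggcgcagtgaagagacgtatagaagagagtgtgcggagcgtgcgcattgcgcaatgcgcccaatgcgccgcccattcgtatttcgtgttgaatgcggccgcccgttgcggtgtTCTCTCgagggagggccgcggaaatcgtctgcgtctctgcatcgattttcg

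Of the 194 lincRNA genes, 8 were bound, which is 4.12% (exact Clopper-Pearson 95% interval 1.80 to 7.96%, as for all intervals below), against 2.06% of protein-coding genes (1.87 to 2.26%) and 2.49% of all nuclear genes. The lincRNA share was 2.00 times the coding share. In replicate 1 alone, at the same number of strongest peaks, 7 lincRNA genes (3.61%) had a summit, against 1.85% of coding genes. In replicate 2 alone 9 had one (4.64%), against 2.17% of coding genes. Over the replicates the lincRNA share was 4.12 ± 0.729% and the coding share 2.01 ± 0.227% (SD, n = 2 each). Both replicates thus gave the higher share in lincRNA genes, but the lincRNA interval holds the coding share, so at 8 genes the difference lies within counting error. The biotype that Ensembl calls ncRNA, a broad class of other noncoding transcripts, had 4.71% of 7764 genes bound (4.25 to 5.21%), and 2 of 100 antisense RNA genes were bound. At this depth the lincRNA share was near that of the ncRNA biotype. With 1 group no test between samples was possible, and neighbouring genes can share a peak.

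At full depth of the lists the lincRNA and coding shares were close. Among the 5000 strongest pooled peaks, 27 lincRNA genes (13.9%, 9.38 to 19.6%) had a summit, against 7.07% of coding genes. The replicates gave less than the pool at that depth: 17 genes in replicate 1 (8.76%, 5.19 to 13.7%), against 6.74% of coding genes, and 20 in replicate 2 (10.3%, 6.41 to 15.5%), against 7.44%. At that depth the lincRNA interval lay above the coding share in the pool, but in neither replicate did it exclude the coding share. With all 30000 peaks 63 lincRNA genes (32.5%, 25.9 to 39.6%) had a pooled summit, against 30.8% of coding genes. In replicate 1 these shares were 28.9% of lincRNA genes and 30.0% of coding genes, and in replicate 2 they were 32.0% and 32.1% of the same classes. The lincRNA share was thus above the coding share at 1053 and at 5000 peaks in all 3 lists. At full depth the lincRNA and coding shares were within 2 percentage points of each other. The share of the ncRNA biotype was then higher, at 43.9% in the pool, 43.7% in replicate 1 and 41.3% in replicate 2. In each list it lay above the lincRNA interval.

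**Figure D1:**
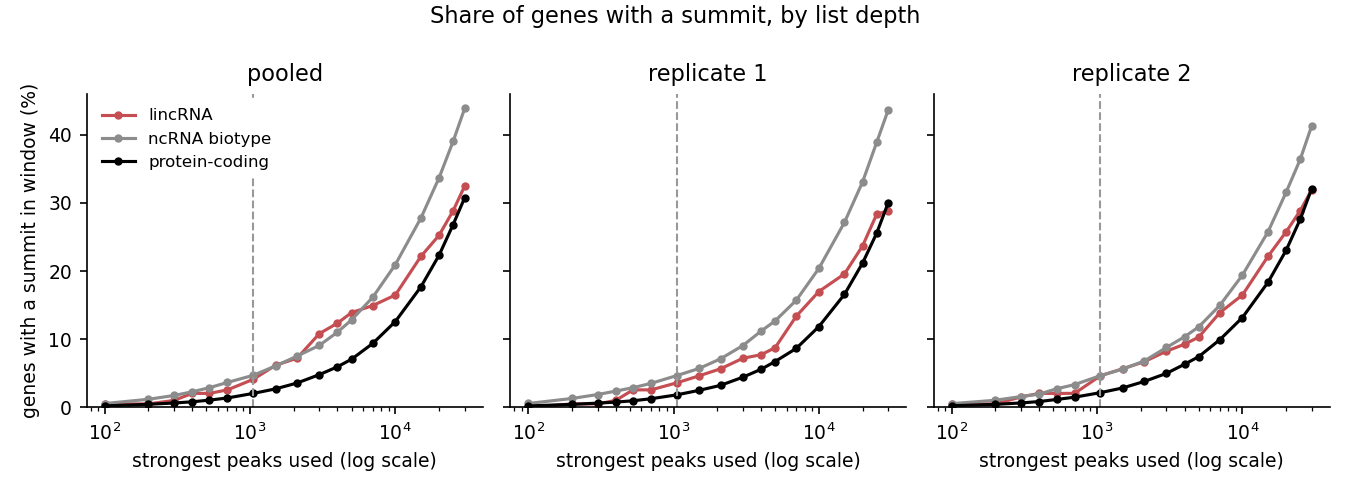
Share of genes with a summit in the window (percent, vertical axis) against the number of strongest peaks used (log scale), for lincRNA, ncRNA and protein-coding genes, in the pooled list and in each replicate; the dashed line stands at 1053 peaks. The lincRNA line lies above the coding line around the dashed line, at 4.12% of lincRNA genes against 2.06% of coding genes in the pool, and comes close to it at 30000 peaks, at 32.5% of lincRNA genes against 30.8% of coding genes. The ncRNA line ends above both, at 43.9% in the pool.

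The strongest lincRNA site was that of linc-44, a 1-exon gene of 193 bp (chrII:5781921-5782113, minus strand). Its peak had rank 92 in the pool, 174 in replicate 1 and 60 in replicate 2, with a pooled signal of 281. The pooled summit lay 9 bp upstream of the 5′ end, at -9 bp, and the replicate summits at -62 and -63 bp. All 3 lists placed it among their strongest peaks. A tRNA gene (chrII:5782212-5782282) has its 5′ end 160 bp from that summit, and a second reproducible summit (rank 838), at 214 bp upstream of linc-44, lay 45 bp from it. The protein-coding gene K05F1.6, divergent from linc-44, starts 398 bp from the strongest summit.

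linc-84 (chrI:8865945-8866624, plus strand) had a peak of rank 272 in the pool and 425 in replicate 1, with a signal of 205; in replicate 2 it ranked between the peaks of linc-44 (60) and linc-54 (237). Its summit lay 316 bp upstream of linc-84 and only 80 bp from the 5′ end of the coding gene F55H12.7. linc-54 (chrX:14505700-14505868, minus strand, 169 bp) had ranks of 324, 449 and 237 in the same order of lists, a signal of 195 and a summit 275 bp upstream. These and linc-44 were the 3 lincRNA genes with a summit among the 1053 strongest of the pool and of both replicates. The nearest coding 5′ end to the linc-54 summit, that of M163.1, was 2319 bp away. linc-54 was thus bound away from coding starts.

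linc-103 (chrX:6256778-6258976, plus strand, 2199 bp) was the other bound lincRNA gene whose summit lay over 2000 bp from any coding 5′ end, with that of W05H9.4 7850 bp from its summit. The peak had rank 311 in the pool, 385 in replicate 1 and 279 in replicate 2, and a signal of 197. Its summit lay near the edge of the window, at -980 bp in the pool and -981 bp in replicate 1, but at -1013 bp in replicate 2, which is outside the window. In replicate 2 the best peak inside the window had rank 20258. All lists held the same strong site, and only the distance rule set replicate 2 apart.

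The remaining 4 bound genes had weaker peaks, each of them outside the 1053 strongest of 1 replicate. M04F3.7 (chrI:4768331-4769063, minus strand) had rank 676 in the pool, 4621 in replicate 1 and 329 in replicate 2. Its summit, at 627 bp upstream, lay about midway between M04F3.7 and rpa-2, which encodes a subunit of the single-stranded DNA binding protein RPA and starts 602 bp away. The site was strong in replicate 2 and weak in replicate 1. linc-91 (chrI:4699610-4702866, plus strand) had ranks of 734 in the pool, 480 in replicate 1 and 1303 in replicate 2, with a summit 77 bp upstream and 958 bp from chd-7, which encodes a chromodomain helicase. A further summit lay 1799 bp inside the single exon of linc-91, with ranks of 510, 325 and 1342.

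linc-78 (chrX:2243115-2243239, plus strand, 125 bp) had a peak of rank 863 in the pool, 1468 in replicate 1 and 753 in replicate 2, with its summit 136 bp upstream. The coding gene rpl-11.2, for a protein of the large ribosomal subunit, starts 361 bp from that summit on the other strand. An annotated ncRNA gene, AH9.7, has the same 5′ end as linc-78, so the site cannot be given to one of the pair. linc-69 (chrV:8766699-8767745, minus strand) had ranks of 879, 1405 and 759 in the same order of lists and a summit 887 bp upstream, 277 bp from the start of B0507.3. Both sites were among the 1053 strongest in replicate 2 and below them in replicate 1. All 8 bound summits lay in intergenic DNA.

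**Figure D2:**
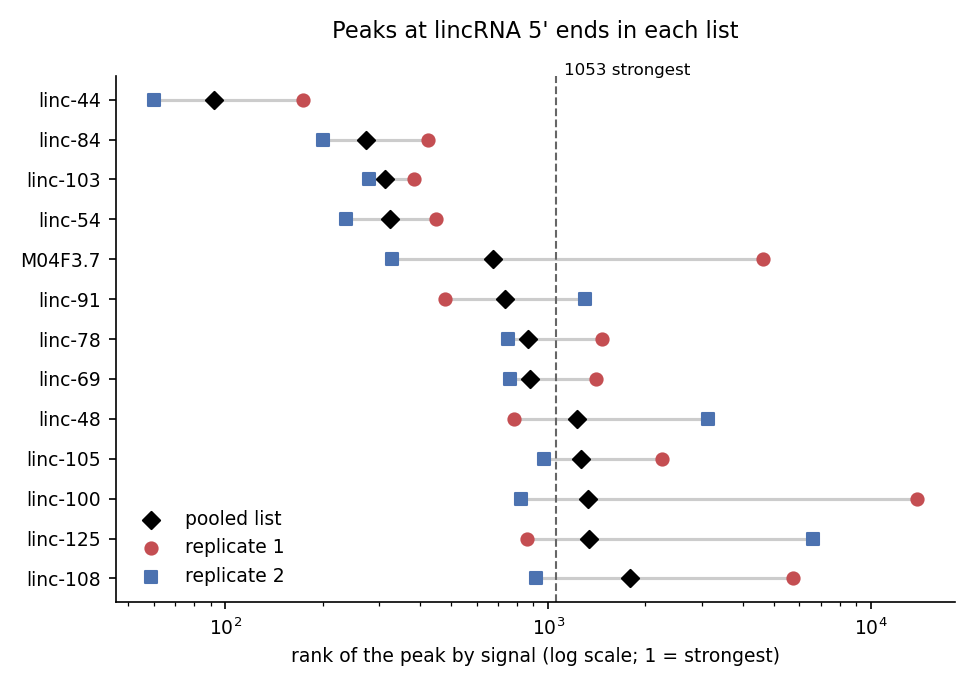
Rank of the peak at each named lincRNA gene (horizontal axis, log scale, 1 is the strongest) in the pooled list, replicate 1 and replicate 2, with 1 gene per row; the replicate values are those of the peak that overlaps the pooled one, and the dashed line stands at rank 1053. The 4 strongest genes lie left of the line in all 3 lists, whereas linc-100 runs from rank 823 in replicate 2 to rank 13832 in replicate 1.

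The 5 genes next below the reproducible list were also split between the replicates. linc-48 had pooled rank 1226, with ranks of 785 in replicate 1 and 3134 in replicate 2, and its summit lay in a coding exon of osm-11, which encodes a secreted ligand of the Notch pathway. linc-105 had pooled rank 1261, with 2251 in replicate 1 and 972 in replicate 2. linc-100 had pooled rank 1332, with 13832 in replicate 1 and 823 in replicate 2, and its summit fell 10 bp inside the lincRNA gene, 4997 bp from the start of mct-6, a gene of the monocarboxylate transporter family. Each of these was among the 1053 strongest in 1 replicate only. linc-125 had pooled rank 1341, with 859 in replicate 1 and 6587 in replicate 2, with the start of aqp-1, an aquaporin gene, 22 bp from its summit. linc-108 had pooled rank 1794, with 5732 in replicate 1 and 919 in replicate 2, with its summit 695 bp from acs-2, which encodes an acyl-CoA synthetase of fatty acid oxidation. The signal on the 2 sides of the limit was close, at 133 for linc-69 inside it and 118 for linc-48 outside it.

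The 13 genes named so far were all the lincRNA genes with a summit among the 1053 strongest peaks of any list. Of the 7 in replicate 1 and the 9 in replicate 2, 3 were shared, which is 42.9% and 33.3% of them. For coding genes 71.3% of those in replicate 1 and 60.7% of those in replicate 2 were shared. linc-103 is not among the 3, although its peak ranked 385 in replicate 1 and 279 in replicate 2. Its replicate 2 summit, at -1013 bp, lay just outside the window. At 5000 peaks 11 lincRNA genes were shared, 64.7% of those in replicate 1 and 55.0% of those in replicate 2, and the coding shares were 56.2% and 50.9%. Over the 37 lincRNA genes with a peak in both relaxed lists, the best ranks had a Spearman rho of 0.44, against 0.50 over 3697 coding genes, as a description across genes that share the control library. The lower overlap at the strong end thus rested on a handful of genes and was not seen at 5000 peaks.

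The other members had weak peaks or none. A further 14 genes had a summit among the 5000 strongest pooled peaks, at ranks from 1880 to 4864, and 13 of them had a summit in both replicate lists. Past that depth, 36 genes had pooled ranks from 5278 to 29459 with a median of 16027, and 10 of them had a summit in both replicates. Neither count of genes found in both replicates was made for coding genes at these ranks. At 30000 pooled peaks 32.5% of lincRNA genes and 30.8% of coding genes had a summit, so having none was about as common in both classes. For 111 lincRNA genes no summit lay in the window in any of the 3 lists, a count not made for coding genes. These lists reach into background, so a late rank or no entry says only that no strong peak was detectable.

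lep-5, a lincRNA known for the timing of the change from larva to adult in the tail and nervous system, was among those 111 (chrX:12652591-12653520, minus strand, 930 bp, 3 exons). The nearest summit lay 2156 bp upstream, outside the window, in a peak at chrX:12655451-12655900 of rank 814 in the pool, 625 in replicate 1 and 2272 in replicate 2. A reproducible peak thus lay upstream of lep-5 but beyond the distance used for a bound gene. The coding gene nearest to lep-5 by 5′ ends, C02B4.3, starts 6327 bp from it. The RNA genes tts-1 and rncs-1 carry the biotype ncRNA in this annotation and were not members.

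The position of reproducible summits around lincRNA 5′ ends rests on only 12 summits. Of these, within 1000 bp on either side of a lincRNA 5′ end, 9 were upstream (75%), against 72.9% at coding genes. The median position was -175 bp (quartiles -394 and 99.3), against -214 bp at coding genes (-505 and 43.8). The replicates differed for lincRNA genes, with a median of -69.5 bp in replicate 1 and -193 bp in replicate 2. For coding genes it was -198 and -212 bp in the same order. At 5000 pooled peaks the lincRNA median was -19 bp, with 21 of 37 pairs of gene and summit upstream (56.8%). For coding genes it was then -85 bp, with 55.5% upstream. At the 3′ end, in a window of the same size mirrored there, 4 lincRNA genes (2.06%, 0.565 to 5.19%) had a reproducible summit, against 1.93% of coding genes. A summit inside the gene was found in 5 lincRNA genes (2.58%), against 1.97% of coding genes. Shares inside the gene depend on gene length, which was not matched between the classes. At 5000 pooled peaks, 27 lincRNA genes had a summit at the 5′ end, 17 at the 3′ end (8.76%) and 17 inside the gene (8.76%); the coding shares were 7.07%, 8.62% and 11.2% in the same order. The difference between the ends was not tested.

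**Figure D3:**
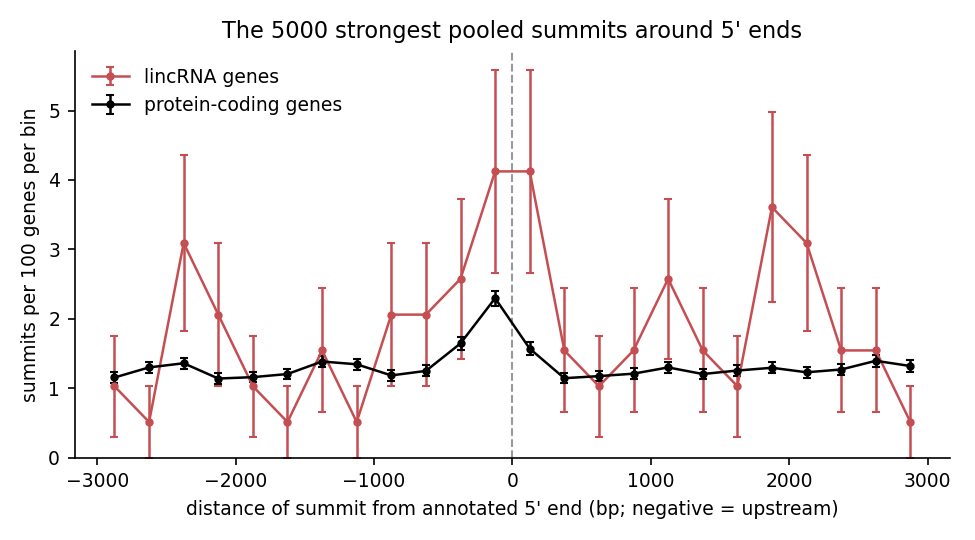
Number of the 5000 strongest pooled summits per 100 genes in bins of 250 bp (vertical axis) by distance from the annotated 5′ end (horizontal axis, bp), for lincRNA and protein-coding genes; bars are the square root of the count and cover counting error only. The lincRNA line is highest in the bins on either side of the 5′ end, with 4.12 summits per 100 genes in each, and its other bins rest on 1 to 7 summits.

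The strongest peak inside any lincRNA gene lay outside the window. The genes of this paragraph were picked after their values were seen. linc-128 (chrV:1150906-1153207, plus strand) had a summit in an exon, 621 bp past its 5′ end, at chrV:1151417-1151611, with rank 26 in the pool, 32 in replicate 1 and 23 in replicate 2 and a signal of 395. The nearest coding 5′ end, that of the calmodulin gene cmd-1, was 4744 bp away. linc-90 had an intron summit of ranks 339, 397 and 398, which lay 84 bp from the start of the coding gene gei-4. Exon summits in linc-129 (906, 1186 and 633) and in linc-142 (1019, 1194 and 1315) were weaker, and the one in linc-142 also lay inside the coding gene scd-1. The linc-128 site was stronger in each list than any site in a lincRNA window, and the replicates differed little there. Beyond the window but within 1000 bp of the 5′ end, linc-37 had a summit 846 bp past it (ranks 281, 247 and 414), inside the bZIP transcription factor gene zip-2 and 395 bp from a snoRNA gene, and linc-107 had one 424 bp past it (956, 969 and 1388).

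Most bound lincRNA genes faced a coding gene. In 6 of the 8, all but linc-103 and linc-54, the summit lay between the lincRNA 5′ end and the 5′ end of a coding gene on the opposite strand, at spacings of 396 to 1229 bp. The same held for 3 of the next 5, linc-105, linc-125 and linc-108. Of all 194 lincRNA genes, 84 (43.3%) had such a divergent gene as the nearest coding 5′ end, and 6 of them were bound (7.14%, 2.67 to 14.9%). Where the nearest coding gene started on the same strand downstream, 2 of 52 were bound; on the same strand upstream none of 34 was bound (upper bound 10.3%), and on the convergent side none of 24 (upper bound 14.2%). At 5000 pooled peaks 16 of the 84 divergent genes (19.0%) had a summit. On the same strand it was 4 of 52 with the coding gene downstream (7.69%) and 5 of 34 with it upstream (14.7%). On the convergent side it was 2 of 24 (8.33%). The groups are small and their intervals overlap.

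The space between facing lincRNA and coding 5′ ends was set beside that between coding genes that face each other. This comparison was chosen after the peaks had been seen and counts the same 6 summits, so its values are a description and no independent support. Of 60 lincRNA and coding pairs up to 2000 bp apart, 6 had a reproducible summit between them (10%, 3.76 to 20.5%), against 2.70% of 2553 pairs of coding genes (2.11 to 3.41%). By spacing, it was 3 of 20 lincRNA pairs up to 500 bp apart (3.21 to 37.9%), against 2.29% of coding pairs (1.42 to 3.48%), and 3 of 40 pairs at 501 to 2000 bp (1.57 to 20.4%), against 2.93% (2.17 to 3.87%), and in both classes of spacing the intervals overlap. The median spacing was 646 bp in lincRNA pairs and 677 bp in coding pairs. Replicate 1 alone gave 6.67% for lincRNA pairs (1.85 to 16.2%), against 2.55% for coding pairs (1.97 to 3.23%). Replicate 2 alone gave 10%, against 2.98% (2.35 to 3.71%). Among the 5000 strongest pooled peaks, 8 of the lincRNA pairs (13.3%, 5.94 to 24.6%) had a summit, against 6.46% of coding pairs (5.54 to 7.49%), and the lincRNA interval holds the coding share. When peaks near tRNA and snoRNA genes (1000 bp or less) were left out, the shares were 8.33% (2.76 to 18.4%) for lincRNA pairs and 2.19% for coding pairs. In pairs farther apart than 2000 bp, 0 of 24 lincRNA pairs held a pooled reproducible summit (upper bound 14.2%), against 6.90% of coding pairs; replicate 2 alone had 2 of 24. At 5000 peaks 7 of these 24 had one (29.2%), against 19.2% of coding pairs.

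**Figure D4:**
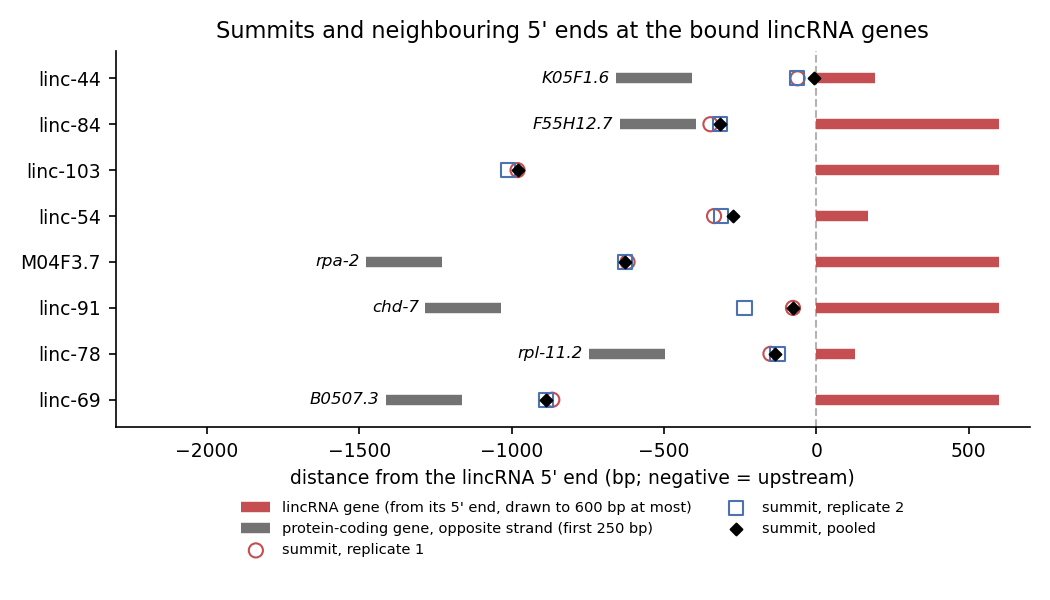
The 8 bound lincRNA genes aligned at their 5′ ends (horizontal axis, distance in bp, negative upstream), with the first 250 bp of the divergent coding gene where the nearest one is divergent, and the summit in each replicate and in the pool. In 6 rows the summit lies between the genes, and at linc-103 and linc-54 the nearest coding gene is not divergent.

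Because they share this space, most bound lincRNA genes could not be told apart from their neighbours. For each lincRNA gene the nearest coding gene by 5′ ends was taken: 8 lincRNA genes and 9 neighbours (4.64%) had a reproducible summit, in 6 pairs both had one, and in all 6 it was the same strongest peak. In 2 pairs the lincRNA gene alone was bound and in 3 the neighbour alone. At 5000 peaks 27 lincRNA genes and 23 neighbours had a summit, and at 30000 peaks 63 lincRNA genes and 73 neighbours had one. Of the 9 reproducible summits in lincRNA windows, 4 (44.4%, 13.7 to 78.8%) were nearer to a coding 5′ end than to the lincRNA 5′ end. This share was 9 of 28 (32.1%) at 5000 peaks and 22 of 81 (27.2%) at 30000 peaks. The neighbours were thus bound about as often as the lincRNA genes themselves.

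The share bound was also counted by the distance to coding 5′ ends. Of lincRNA genes with a coding 5′ end within 1000 bp, 3 of 57 were bound (5.26%), of those at 1001 to 2000 bp 3 of 44 (6.82%), of those at 2001 to 5000 bp 1 of 67 (1.49%), and of those farther away 1 of 26 (3.85%). In coding genes with another coding 5′ end at these distances the shares were 2.77%, 1.89%, 1.80% and 1.86%. All 4 lincRNA intervals hold the coding share of the same distance class. At 5000 peaks this was so for 3 of the 4 classes. Of lincRNA genes with a coding 5′ end within 1000 bp, 10 of 57 then had a summit (17.5%, 8.75 to 29.9%), against 8.36% of coding genes, so that interval lay above the coding share.

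The bound genes were compared with all lincRNA genes in structure and place, as a description. Their median length was 707 bp (125 to 3257), against 761 bp (101 to 6035) for all 194. Despite the name of the biotype, 42 of the 194 overlapped an annotated protein-coding gene, among the bound ones linc-78 alone. Of the 8, 5 had 1 exon (62.5%), against 56 of 194 (28.9%). The median distance to the nearest coding 5′ end was 1100 bp for the bound genes and 1781 bp for all. By chromosome, 3 of 23 lincRNA genes on I, 3 of 38 on X, 1 of 43 on II and 1 of 35 on V were bound, and 0 of 29 on III and 0 of 26 on IV. The coding shares were 2.31% on X, 1.86% on II, 1.40% on V, 3.11% on III and 1.98% on IV. On each of these the lincRNA interval held the coding share, with an upper bound of 11.9% on III and 13.2% on IV. On chromosome I the lincRNA interval (2.78 to 33.6%) lay above the coding share there (2.33%), and it rests on 3 genes. At 5000 peaks it held the coding share (5 of 23 lincRNA genes, 7.46 to 43.7%, against 7.96% of coding genes).

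At the 8 bound summits, shown above or not, the commonest of the 4 motifs was GAGAGA. Within 100 bp of the strongest summit at each bound gene, 5 of 8 windows held it on either strand (62.5%; linc-84, linc-103, linc-54, linc-91 and linc-78), against 36.6% of windows at all 1053 reproducible summits. At 5000 peaks it was in 10 of 28 lincRNA windows (35.7%), against 25.8% of all 5000. AGGTCA was in 1 of the 8 (linc-103), against 5.79% of all reproducible windows, TATAAA in 1 (M04F3.7), against 11.6%, and GGTTCNA in 1 (linc-69), against 22.3%. The linc-44 window held none of these letters, but it ended at chrII:5782222, and most of the tRNA gene there (chrII:5782212-5782282) lay outside it. The window of linc-128 held GAGAGA. None of the 4 motifs contains another. Base composition was alike on average, with 45.3 ± 6.26% G and C in the 8 lincRNA windows (SD over windows) and a mean of 45.3% in all 1053.

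In the promoters of all 194 lincRNA genes, bound or not, taken from 250 bp before to 50 bp past the 5′ end, GAGAGA was in 25.8%, against 21.8% of coding promoters. AGGTCA was in 8.76% of lincRNA promoters and 8.29% of coding promoters, GGTTCNA in 8.25% of lincRNA and 8.10% of coding promoters, and TATAAA in 29.9% of lincRNA and 38.0% of coding promoters. These shares are given as a description, without a test. A match is a run of letters and does not show a bound site.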

How the data were processed

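ChIP-seq peak lists of 2 biological replicates of whole L4 larvae, 1 group, were used. Per the labels, chromatin was sonicated, coordinates are in assembly ce11 and both replicates have the same control. The deposited lists give for each peak a signal value from the authors' peak caller, used here by rank within a list, and a −log10 q-value as deposited, which was not used to choose peaks. The aligner is not given in the sources used here, nor is the peak caller. The deposited files hold no read counts, so depth per library is unknown, and intervals (95%) cover only the counting error over genes.

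Summits were joined to the Ensembl annotation, release 115, with 1-based coordinates. Worm transcripts are often trans-spliced, so transcription can start upstream of an annotated 5′ end. A summit may count for several genes. Shares were computed with exact Clopper-Pearson intervals, and no test between samples was possible. The join was checked on placed peaks. Alternatives were narrower and wider windows, fewer and more peaks, each replicate alone, leaving out peaks near tRNA or snoRNA genes, whole-peak overlap, 1 gene per summit, and leaving out genes near coding 5′ ends. Named genes were all bound lincRNA genes, the 5 next below the reproducible list, lep-5, tts-1 and rncs-1 if annotated as lincRNA, the coding, tRNA or snoRNA genes nearest to named peaks, and both transgene loci. The members and lists were chosen with earlier results of these data known. Python 3.11.15, numpy 2.4.6, pandas 2.3.3, scipy 1.17.1 and matplotlib 3.10.9 were used.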

Additional observations from a re-analysis of the deposited data

How the results depend on the processing

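The higher share in lincRNA genes than in coding genes kept its direction in all settings run at the strength of the reproducible list and at 5000 peaks, while its size followed the window and the number of peaks. The lincRNA share was 4.12%, and it became 2.58% with a window of 500 bp upstream to 100 bp downstream, 5.15% with 2000 bp upstream, 2.06% with the stronger 50% of peaks, 7.22% with 2 times as many peaks, 5.15% with whole-peak overlap and 2.06% when each summit was given to 1 gene. The coding share was 2.06% and, in the same order, 1.34%, 3.10%, 1.07%, 3.58%, 2.36% and 1.14%. Each replicate alone gave 3.61 to 4.64% of lincRNA genes and 1.85 to 2.17% of coding genes. Chosen after seeing the data, peaks strong in both replicates gave 2.06% and the 5000 strongest pooled peaks 13.9%. The coding shares there were 1.29% and 7.07%. The ratio to coding genes was 2.00, and 1.66 with 2000 bp upstream, 2.18 without peaks near tRNA or snoRNA genes, 2.18 with whole-peak overlap, 1.81 with 1 gene per summit, 1.60 for peaks strong in both replicates and 1.95 to 2.14 in the replicates alone. The share of summits nearer to a coding 5′ end, 44.4%, was 33.3% with the narrow window, 54.5% with the wide one, 25% with the stronger 50% of peaks and 33.3 to 42.9% in the replicates alone. The median summit position of -175 bp was -193 to -69.5 bp in the replicates alone and -19 bp at the 5000 strongest pooled peaks. The share with a relaxed peak, 32.5%, was 28.9 to 32.0% in the replicates alone, 19.6% with the narrow window and 47.9% with the wide one. No paired analysis was possible because there is 1 group. The causes of these shifts were not tested. Depth is unknown, and with 8 bound genes 1 gene moves the lincRNA share by over 0.5 percentage points.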
